A study of Mus musculus with 8 samples.

Results

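The 28 genes described here make, sense, move or store cholesterol. They were chosen by name, and each was read by the brightest of the probe sets that carry its symbol alone, the one with the highest mean log2 intensity over the 8 arrays. By this rule 26 of the 28 were measured, out of 18193 genes. They comprised 8 genes of the mevalonate and isoprenoid steps, 11 of the squalene and sterol steps, 4 regulators and 3 genes of trafficking, while Acat2 and Soat1 were not analysed here.

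The cells were primary mesenchyme cultures from the palates of mouse embryos of strain C57BL/6J at E13.5, passaged 2 times before RNA extraction and read on Affymetrix arrays. The 4 mutant samples had the genotype Tgfbr2 fl/fl; Wnt1-Cre, in which Cre expressed under Wnt1 control removes a floxed segment of the TGF-beta type II receptor gene from cranial neural crest cells and their descendants. The 4 control samples were Tgfbr2 fl/fl without the Cre, so the floxed alleles were common to both genotypes, although the control titles call them wild type. Cells in a culture that do not descend from the Wnt1 lineage, such as macrophages, keep the receptor in a mutant embryo. The comparison asks how loss of the receptor in this lineage alters gene expression. Whether every array stands for a separate embryo is not in the labels. The p-values therefore reflect the variation among these 8 samples, part of which may be technical, and the small number of arrays limits the precision.

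Cholesterol is built from acetyl-CoA in the cytosol and endoplasmic reticulum. The mevalonate steps make farnesyl diphosphate, which is either turned into squalene and then, through lanosterol, into cholesterol, or diverted to isoprenoids that anchor proteins in membranes. When membrane cholesterol is low, the carrier Scap takes the transcription factor SREBP2, made from Srebf2, to the Golgi for cleavage, and the Insig proteins hold this complex back when sterols are plentiful. Nuclear SREBP2 binds sterol regulatory elements and acts together with NF-Y, which binds CCAAT boxes, and with Sp1, which binds GC boxes. In embryos, cholesterol is a membrane component and the lipid attached to Hedgehog ligands, and inherited loss of DHCR7 causes Smith-Lemli-Opitz syndrome, in which cleft palate is frequent.

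The promoters of 5 members are shown because the enzyme genes varied together between cultures, as described below. Hmgcs1 and Insig1 hold letters that match the core of a sterol regulatory element. Idi1, Msmo1 and Tm7sf2, which lack such a match, are enzymes whose level differed clearly between arrays. Whether any of these letters bear on the levels was not tested. The sequences are RefSeq's for GRCm38.p6 and run 5′ to 3′ on the gene's strand, from 250 bases before the annotated start to 50 bases after it. Capitals mark CCAAT on either strand (CCAAT or ATTGG) and CACNCCAC on either strand, the core of TCACNCCAC, a common form of that element. The regions are chr13:119690101-119690400 (plus strand) for Hmgcs1, chr5:28071162-28071461 (plus strand) for Insig1, chr13:8885356-8885655 (plus strand) for Idi1, chr8:64733529-64733828 (minus strand) for Msmo1 and chr19:6067801-6068100 (minus strand) for Tm7sf2.
Hmgcs1: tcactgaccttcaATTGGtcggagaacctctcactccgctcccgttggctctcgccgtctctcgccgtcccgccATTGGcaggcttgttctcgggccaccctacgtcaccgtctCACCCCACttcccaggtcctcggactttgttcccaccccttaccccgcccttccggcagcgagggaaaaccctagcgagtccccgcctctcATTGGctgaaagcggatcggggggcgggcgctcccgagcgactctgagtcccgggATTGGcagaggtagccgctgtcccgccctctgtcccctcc
Insig1: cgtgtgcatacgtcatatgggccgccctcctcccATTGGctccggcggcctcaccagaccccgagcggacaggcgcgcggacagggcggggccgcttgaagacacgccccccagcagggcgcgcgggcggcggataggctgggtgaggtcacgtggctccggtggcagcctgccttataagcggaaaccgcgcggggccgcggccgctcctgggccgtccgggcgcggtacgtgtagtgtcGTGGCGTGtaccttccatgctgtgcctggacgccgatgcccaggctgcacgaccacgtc
Idi1: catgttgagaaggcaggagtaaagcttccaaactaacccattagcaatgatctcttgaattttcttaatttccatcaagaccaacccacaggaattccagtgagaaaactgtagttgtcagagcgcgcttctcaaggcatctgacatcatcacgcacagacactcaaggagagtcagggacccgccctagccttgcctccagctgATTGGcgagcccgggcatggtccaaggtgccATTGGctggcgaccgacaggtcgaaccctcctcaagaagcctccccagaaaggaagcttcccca
Msmo1: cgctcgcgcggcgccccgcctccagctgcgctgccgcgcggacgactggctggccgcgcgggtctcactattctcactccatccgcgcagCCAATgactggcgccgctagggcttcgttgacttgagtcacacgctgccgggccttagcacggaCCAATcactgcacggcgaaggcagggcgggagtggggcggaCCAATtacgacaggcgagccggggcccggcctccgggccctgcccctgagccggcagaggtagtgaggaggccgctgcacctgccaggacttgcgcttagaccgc
Tm7sf2: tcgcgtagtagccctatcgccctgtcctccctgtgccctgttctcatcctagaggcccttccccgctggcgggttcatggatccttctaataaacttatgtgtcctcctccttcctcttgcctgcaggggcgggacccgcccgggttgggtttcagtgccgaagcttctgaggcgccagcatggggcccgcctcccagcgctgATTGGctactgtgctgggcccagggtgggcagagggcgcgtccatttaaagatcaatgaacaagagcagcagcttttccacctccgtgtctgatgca

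Among the 20 members with a promoter window in the RefSeq table, which does not list Acat1, Acat2, Fdps, Fdft1, Sqle, Stard4, Npc1 and Soat1, the letters CCAAT stood on either strand in 19. The same letters were found for 41.1% of all 27025 genes in the table and for 42.0% of the 14452 genes that were also measured on the array. Scap was the member without them. A GC box, GGGCGG on either strand, was present for 18 of the 20 members (90.0%), against 38.2% of all genes in the table and 57.3% of the array's genes. The core CACNCCAC was found for Hmgcs1 and Insig1 alone among the 20 (10.0%), against 7.12% of all genes and 7.64% of the array's genes. In the longer form TCACNCCAC, which contains the core, it stood 137 bases before the start of Hmgcs1 and in no other member window (5.0% of the 20 members, against 1.44% of all genes and 1.46% of the array's genes). Some genes have several windows, and a gene was counted when any of them held the letters. These matches describe the letters in each window and do not show binding.

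Tgfbr2, the targeted gene, read 12.63, 12.76, 12.55 and 11.73 in mutants 1 to 4, against 12.40, 12.38, 11.72 and 11.66 in controls 1 to 4 (log2 intensity, as are all levels below). The difference, mutant minus control, was 0.37 with adjusted p = 0.538 in limma. Where its probe set lies in the gene was not established, and a probe set outside the deleted segment would not check the genotype. Tgfbr2 also varied with macrophage transcripts, and its slope on them is given with those of the members. Palatal mesenchyme markers were bright, with a mean over 8 genes of 11.78 to 12.26 in mutants and 11.67 to 12.14 in controls. Osr2 was an exception, at 6.22 to 6.91 on all arrays, below the median of all probe sets (6.94). Pdgfra, a mesenchymal receptor, read 10.10 in control 4 and 12.23 or more on the other 7 arrays. Cdh1, an epithelial cadherin, read 5.20 to 7.44 in mutants and 4.30 to 6.14 in controls (difference 1.47, unadjusted p = 0.0264, adjusted p = 0.268 in limma). Epithelial markers as a whole averaged 7.03 to 7.47 over 4 genes in mutants and 6.70 to 7.12 in controls, and endothelial markers were dim, with a mean over 4 genes of 6.07 to 6.37 in mutants and 5.87 to 6.10 in controls. Control 3 alone expressed Xist (11.48) and read 4.62 or less for the 3 Y-linked genes measured, as a female culture does.

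The control probe sets of the arrays divided the samples in more than 1 way, and the labels describe neither division. For the hybridisation control bioB, the arrays numbered 1 and 2 gave 6.34 to 6.52 and those numbered 3 and 4 gave 8.24 to 8.79, whichever their genotype. The poly-A labelling controls read 6.77 to 7.56 on mutants 3 and 4 and control 3, and 8.53 to 9.21 on the other 5 arrays. Probe sets for 18S ribosomal RNA divided the arrays in the same way as poly-A, at 8.97 to 9.70 and 11.94 to 12.86. Results below are given with these divisions where they alter a call.

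No member passed the test between mutant and control cultures after adjustment over all genes. In limma 0 of 26 passed an adjusted p under 0.05, where 0.0879% of all genes did, and 1 of 26 had an unadjusted p under 0.05, where 15.5% of all genes did. Of the members 13 were higher and 13 lower in mutants, with a median difference of -0.01, which was also the median over all genes. The differences ran from -0.24 for Hsd17b7 to 0.40 for Msmo1, and adjusted p ran from 0.271 to 0.99. For 15 members the 95% interval of the difference lay within a 1.5-fold change in either direction. For the remaining members the interval reached further, widest for Tm7sf2 at 0.89 on either side of the estimate. All 26 read above the median of all probe sets on every array. The probe sets used for Mvd, Ggps1, Lss, Fdft1 and Hsd17b7 carry array suffixes that mark possible shared sequence with other transcripts, so these 5 are less certain.

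**Figure D1:**
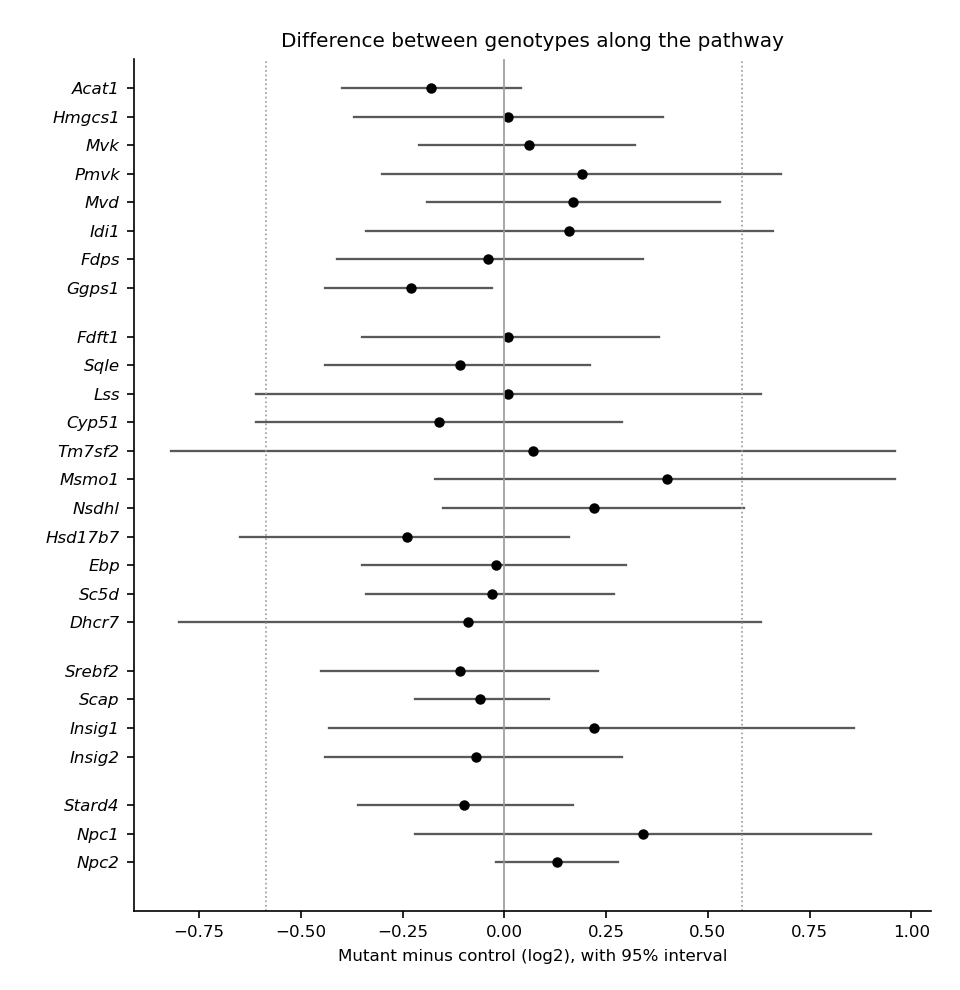
Difference between mutant and control arrays (mutant minus control, log2) for the 26 members in pathway order, with the 95% interval from limma (n = 4 each). Dotted lines mark a 1.5-fold change. The points scatter on both sides of 0 in each block, and the interval of Ggps1 alone leaves 0 out.

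The first block holds the steps from acetyl-CoA to the isoprenoid diphosphates. Acat1, the mitochondrial acetoacetyl-CoA thiolase, read 11.90, 12.02, 11.95 and 11.74 in mutants, against 12.19, 12.19, 12.05 and 11.90 in controls. The lowest control lay within the range of the mutants, and the difference was -0.18 (SE 0.10, unadjusted p = 0.0967, adjusted p = 0.405 in limma). Hmgcs1, which joins acetyl-CoA to acetoacetyl-CoA to give HMG-CoA, read 13.05, 13.34, 12.92 and 12.88 in mutants, against 13.25, 13.14, 13.16 and 12.59 in controls. Its highest value was in mutant 2 and its lowest in control 4, and it averaged 13.05 ± 0.21 in mutants and 13.04 ± 0.30 in controls (SD, n = 4 each).

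Mevalonate is phosphorylated by Mvk and then by Pmvk, and decarboxylated by Mvd. Their differences were 0.06, 0.19 and 0.17, with adjusted p of 0.846, 0.712 and 0.644 in limma. Pmvk read 10.23, 10.34, 9.88 and 9.74 in mutants, against 10.02, 10.06, 10.09 and 9.27 in controls, where control 4 stood well below the other controls. Idi1, the isomerase of isopentenyl diphosphate, read 12.33, 12.43, 11.68 and 11.58 in mutants, against 12.08, 12.03, 11.69 and 11.58 in controls. In both genotypes replicates 1 and 2 were above replicates 3 and 4, which is the bioB division. Among replicates 1 and 2 the difference of Idi1 was 0.33 (unadjusted p = 0.0106, adjusted p = 0.0701 in limma on those 4 arrays) and among replicates 3 and 4 it was 0.00.

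Farnesyl diphosphate is made by Fdps, which averaged 12.76 ± 0.15 in mutants and 12.80 ± 0.33 in controls (SD, n = 4 each). Ggps1 lengthens farnesyl diphosphate to geranylgeranyl diphosphate, a lipid anchor for membrane proteins, and so leads away from sterols. It read 8.88, 8.85, 8.85 and 9.15 in mutants, against 9.08, 9.20, 9.18 and 9.22 in controls. Mutants 1 to 3 lay below all controls and mutant 4 lay among them. The difference was -0.23 (SE 0.09, a 1.18-fold lower mean), with the smallest p of the members in the fit without covariates (unadjusted 0.0278, adjusted 0.271 in limma). It was -0.27 among replicates 1 and 2 and -0.20 among replicates 3 and 4. Without mutant 4 it was -0.31 with adjusted p = 0.0471 in limma, in a fit where 7.23% of all genes passed. The other 3 probe sets of Ggps1 gave -0.37, -0.24 and -0.16, none with an unadjusted p under 0.05. Over the 8 genes of this block the median difference was 0.04.

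The squalene and sterol steps had a median difference of -0.02 over 11 genes, 5 higher and 6 lower, and none had an unadjusted p under 0.05 in limma. Fdft1 joins farnesyl groups into squalene, Sqle adds the epoxide in a rate-limiting oxygenation, and Lss closes the rings to lanosterol. Their differences were 0.01, -0.11 and 0.01. Lss read 10.04, 10.36, 9.71 and 9.44 in mutants, against 10.15, 10.13, 10.07 and 9.16 in controls, so the range within each genotype was 0.92 in mutants and 0.99 in controls. Cyp51, which removes a methyl group from lanosterol, read 11.04, 11.35, 10.56 and 10.84 in mutants, against 11.38, 11.32, 10.98 and 10.74 in controls (difference -0.16, adjusted p = 0.736 in limma).

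Tm7sf2, a sterol reductase of the endoplasmic reticulum and nuclear envelope, varied most within the controls. It read 9.53, 9.91, 9.45 and 8.86 in mutants, against 9.93, 10.06, 9.13 and 8.35 in controls. The highest and lowest control differed by 1.72, or 3.29-fold, while the genotype difference was 0.07 (SE 0.39, adjusted p = 0.95 in limma). The 95% interval of that difference, -0.82 to 0.96, includes changes of over 1.5-fold in either direction. The difference was -0.28 among replicates 1 and 2 and 0.42 among replicates 3 and 4.

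Msmo1, the sterol methyl oxidase, had the largest difference of the members. Its values were 12.18, 12.26, 11.98 and 11.66 in mutants, against 12.00, 11.94, 10.91 and 11.63 in controls. Control 3 was lower than every other array, and the difference of 0.40 (SE 0.25, adjusted p = 0.47 in limma) was 0.16 without it. With the poly-A division as a factor the difference was 0.56 (unadjusted p = 0.00714, adjusted p = 0.125 in limma). With the bioB division it was 0.40 (unadjusted p = 0.0437, adjusted p = 0.213 in limma). Fitted together with the macrophage mean described below, it was 0.10. Nsdhl and Hsd17b7, which act with Msmo1 in removing methyl groups from the sterol ring, differed in opposite directions, by 0.22 and -0.24 (adjusted p = 0.546 and 0.539 in limma). Hsd17b7 read 10.32, 10.59, 9.90 and 10.11 in mutants, against 10.71, 10.59, 10.45 and 10.13 in controls.

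The last steps are run by Ebp, Sc5d and Dhcr7, which shift, add and reduce double bonds of the sterol rings. Ebp averaged 11.66 ± 0.06 in mutants and 11.68 ± 0.30 in controls, and Sc5d 11.11 ± 0.25 in mutants and 11.14 ± 0.13 in controls (SD, n = 4 each). Dhcr7 read 9.71, 10.11, 9.85 and 9.10 in mutants, against 10.14, 10.12, 9.93 and 8.92 in controls. Mutant 4 and control 4 were the low arrays of their genotypes, and the difference was -0.09 (SE 0.31, adjusted p = 0.919 in limma). Nsdhl and Ebp lie on the X chromosome. The female culture, control 3, read 10.63 for Nsdhl and 11.78 for Ebp, in each case within the range of the other controls.

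Among the regulators Srebf2 averaged 10.21 ± 0.21 in mutants and 10.32 ± 0.24 in controls, and Scap 10.37 ± 0.09 in mutants and 10.43 ± 0.05 in controls (SD, n = 4 each). Scap had among the narrowest intervals of the members, -0.22 to 0.11. Insig1, itself a target of SREBP2, read 11.09, 11.16, 10.62 and 10.24 in mutants, against 11.03, 10.86, 10.41 and 9.96 in controls. It was higher on replicates 1 and 2 than on replicates 3 and 4 in both genotypes, and the genotype difference was 0.22 (SE 0.28, adjusted p = 0.751 in limma). It was 0.40 without mutant 4 and 0.01 without control 4. Insig2 was likewise higher on replicates 1 and 2, with 10.42, 10.37, 10.15 and 10.15 in mutants, against 10.70, 10.52, 10.16 and 10.01 in controls. The genotype difference of Insig2 was -0.07 (adjusted p = 0.856 in limma).

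Npc1 and Npc2 pass cholesterol out of lysosomes, Npc2 as a soluble carrier and Npc1 in the lysosomal membrane, and Stard4 carries cholesterol through the cytosol. Npc2 was the member whose genotypes did not overlap, with 14.20, 14.17, 14.26 and 14.26 in mutants, against 14.10, 14.11, 14.16 and 14.00 in controls. The gap lay between 14.17 in mutant 2 and 14.16 in control 3, and the difference of the means was 0.13 (SE 0.07, adjusted p = 0.387 in limma). Such separation with mutants higher held for 1 of 26 members and for 2.89% of all genes. Separation with mutants lower held for 0 of 26 members and for 5.18% of all genes. Of the other probe sets of Npc2, one gave 0.51 (unadjusted p = 0.0236 in limma), and the remaining 2 gave 0.13 and 0.06.

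Npc1 read 9.43, 9.07, 9.17 and 8.43 in mutants, against 9.12, 8.81, 8.52 and 8.27 in controls. Mutant 4 lay below the other mutants, and the difference was 0.34 (SE 0.24, adjusted p = 0.532 in limma). It was 0.54 without mutant 4 and 0.21 without control 4. Stard4 averaged 10.11 ± 0.20 in mutants and 10.21 ± 0.13 in controls (SD, n = 4 each). Across the module, 18 members had 35 further probe sets, of which 27 gave a difference of the same sign as the probe set used.

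The spread between cultures of 1 genotype was wide for these genes. Their residual SD in limma's fit had a median of 0.25, against 0.17 over all genes, and it was above that median for 22 of 26 members. The enzymes of synthesis, 19 genes in the first 2 blocks, tended to be high or low together on an array. Mutant 2 was the highest mutant for 17 of the 19, among them all 11 squalene and sterol steps, against 16.4% of all genes. Control 4 was the lowest control for 15 of the 19, against 28.7% of all genes. With quantile normalisation these counts were 16 and 15, and with the mean of all probe sets of a gene they were 14 and 15. Both arrays were singled out after their values were seen.

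**Figure D2:**
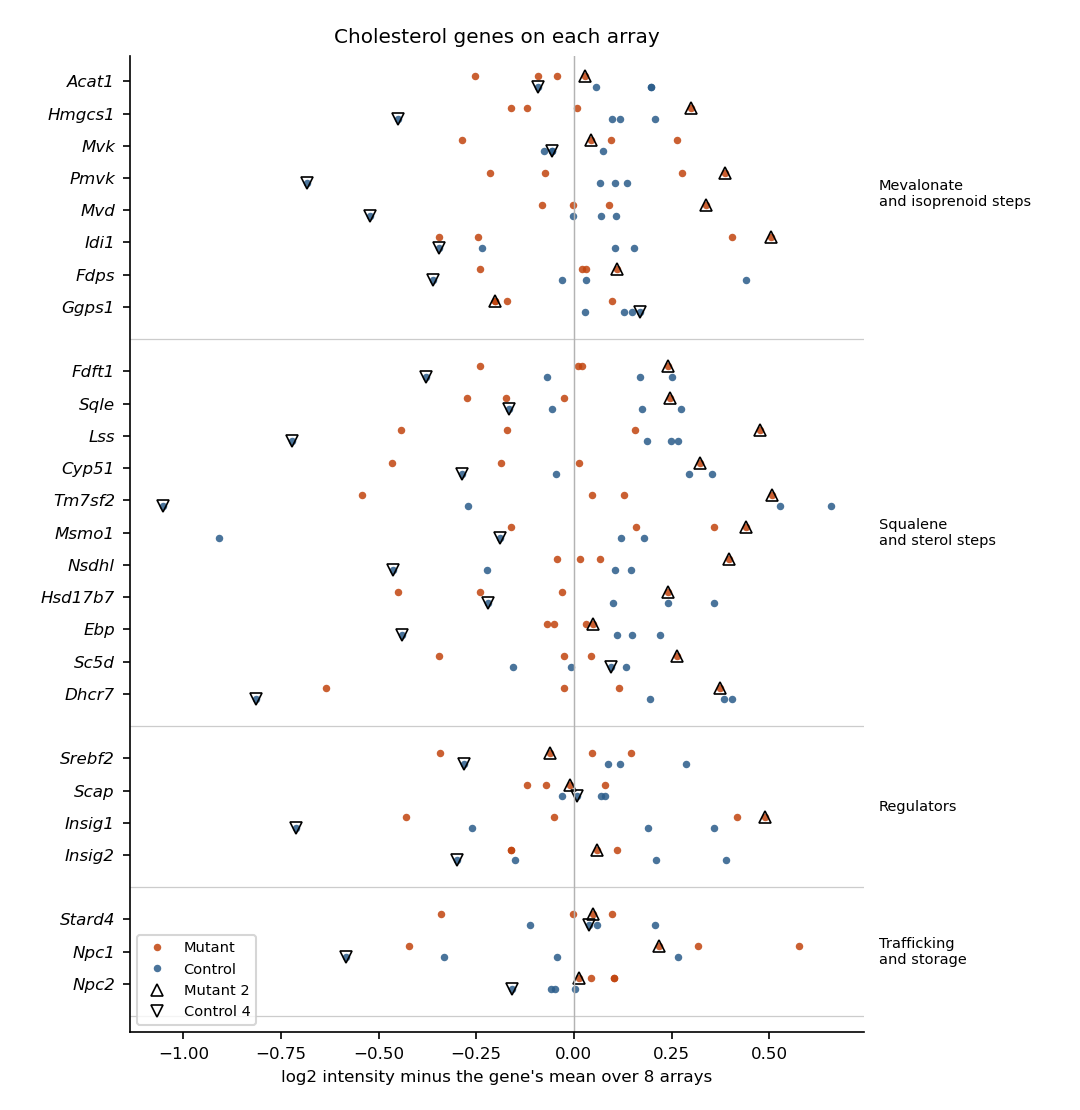
Level of each member on each array as log2 intensity minus the gene's mean over 8 arrays, mutants above controls in each row, with mutant 2 and control 4 outlined. Mutant 2 stands at the high end and control 4 at the low end for most enzymes, while Scap and Npc2 vary little.

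In numbers, the median deviation of the 19 enzymes from the mean of their genotype was 0.01, 0.29, -0.09 and -0.12 on mutants 1 to 4, and 0.22, 0.18, -0.03 and -0.36 on controls 1 to 4. Over all genes the same median lay between -0.03 and 0.04 on every array.

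**Figure D3:**
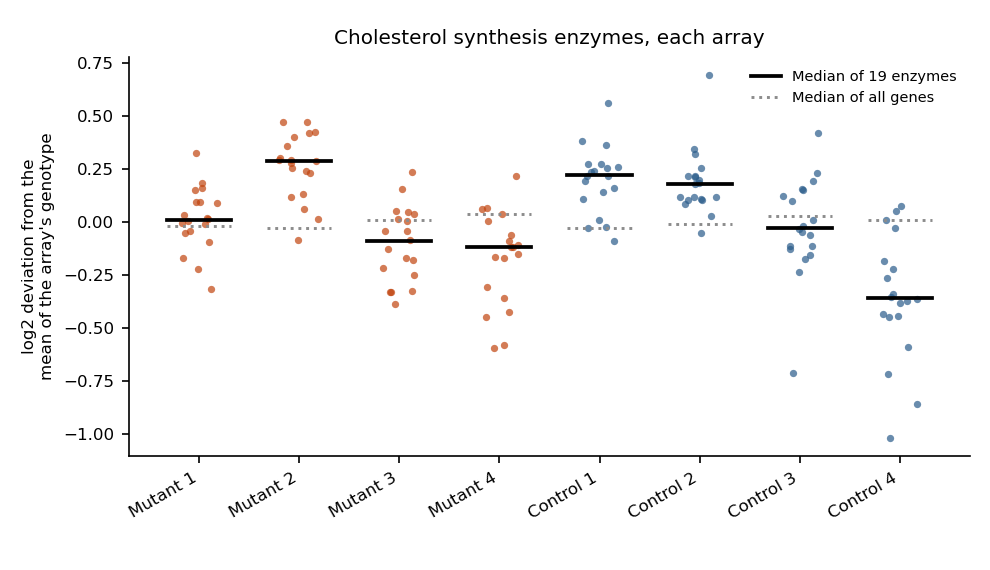
Deviation of the 19 enzymes from the mean of the array's genotype (log2), 1 point per gene, with the median of the enzymes (solid) and of all genes (dotted). The enzyme median is 0.29 on mutant 2 and -0.36 on control 4, while the median of all genes stays near 0.

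Enzymes that moved with the cultures did so by different amounts. Control 4 lay below the mean of the other controls by 1.36 for Tm7sf2, 1.14 for Dhcr7 and 0.96 for Lss, but by 0.03 for Mvk. Sc5d, Ggps1 and Msmo1 were slightly higher in control 4 than in the mean of the other controls, by 0.11, 0.07 and 0.01. Mutant 2 exceeded the mean of the other mutants by 0.63 for both Tm7sf2 and Lss. Ggps1 was lower in mutant 2, by 0.11. Control 4 is also the array with low Pdgfra, and whether this bears on the low enzymes was not tested.

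Macrophages internalise and process large amounts of lipid, and their transcripts were bright in these cultures. The mean of Ctss, Tyrobp and Fcer1g, a lysosomal protease and a pair of immune signalling adaptors, was 14.34, 14.29, 14.40 and 12.86 in mutants 1 to 4, against 13.78, 13.93, 12.74 and 12.47 in controls 1 to 4. The 5 arrays from 13.78 up and the 3 from 12.86 down form separate ranges. The genotypes overlapped, with 13.97 ± 0.74 in mutants and 13.23 ± 0.73 in controls (SD, n = 4 each, exact two-sided permutation p = 0.171, where 0.0286 is the smallest p possible). A longer list of 10 macrophage genes gave 13.24, 13.34, 13.27 and 10.94 in mutants, against 12.30, 12.62, 11.07 and 11.07 in controls, and all 10 were above the median of all probe sets on every array. Of the epithelial markers, Cdh1 also followed the macrophage mean, with a slope of 1.14 (adjusted p = 0.00414 in limma, genotype in the fit), and the part of Cdh1-expressing cells in the results below was not tested. In bulk RNA, fewer macrophages and less RNA per macrophage cannot be told apart.

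Each member was then fitted on this mean with genotype in the fit, so that the slope is the log2 change per unit of macrophage mean at a fixed genotype. Because the arrays fall in separate ranges, the slope in effect compares the 5 macrophage-rich with the 3 macrophage-poor arrays. Tgfbr2, fitted in the same way, had a slope of 0.58 (SE 0.06, adjusted p = 0.00113 in limma). Whether macrophage RNA or the bioB division bears on the Tgfbr2 reading in mutants was not tested. Slopes were positive for 19 and negative for 7 of the 26 members, with a median of 0.19, against -0.04 over all genes. In limma 4 of 26 passed an adjusted p under 0.05, near the 13.8% of all genes that did. All 4 were positive, where 7.38% of all genes passed with a positive slope and 6.45% with a negative one. At an unadjusted p under 0.05, 11 of 26 were positive, where 13.6% of all genes were, and 0 were negative, where 17.1% of all genes were.

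Of the 4 members past the threshold, 2 belong to the squalene and sterol steps, 1 to the regulators and 1 to trafficking. The sterol reductase Tm7sf2 had a slope of 0.77 (SE 0.15, adjusted p = 0.0131 in limma) and Dhcr7, which reduces the last double bond to yield cholesterol, 0.58 (SE 0.14, adjusted p = 0.0334 in limma). The sterol sensor Insig1 had 0.54 (SE 0.12, adjusted p = 0.0196 in limma), and the lysosomal transporter Npc1 0.49 (SE 0.09, adjusted p = 0.00981 in limma). For Dhcr7, control 3 stood with the macrophage-rich arrays (9.93) at a macrophage mean of 12.74. Below the threshold but with an unadjusted p under 0.05 were Lss (0.43), Msmo1 (0.40), Idi1 (0.34), Pmvk (0.31), Nsdhl (0.25), Insig2 (0.25) and Acat1 (0.16). Further probe sets gave 0.39 and 0.43 for Acat1 (unadjusted p = 0.00105 and 0.000362 in limma), 0.76 and 0.02 for Lss, and 0.45 for Idi1. They gave 0.33 and 0.12 for Insig2 and 0.14 for Msmo1. Hmgcs1, at 0.21 with the probe set used, had 0.27, 0.27, 0.55 and 0.38 with the others, all at an unadjusted p under 0.05 in limma. With the probe sets used, Npc2, Fdps, Mvk and Sc5d had slopes between -0.01 and 0.01, and the most negative slope was that of Stard4 (-0.13). The other probe sets of Stard4 gave positive slopes, 0.64 (unadjusted p = 0.0305 in limma) and 0.22, so its direction depended on the probe set. Those of Npc2 gave 0.34 (unadjusted p = 0.00537 in limma), 0.02 and 0.04. Ggps1 had a slope of -0.12 with the probe set used (unadjusted p = 0.0611 in limma). Its other probe sets gave -0.24 (unadjusted p = 0.000926 in limma), -0.11 and 0.21.

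**Figure D4:**
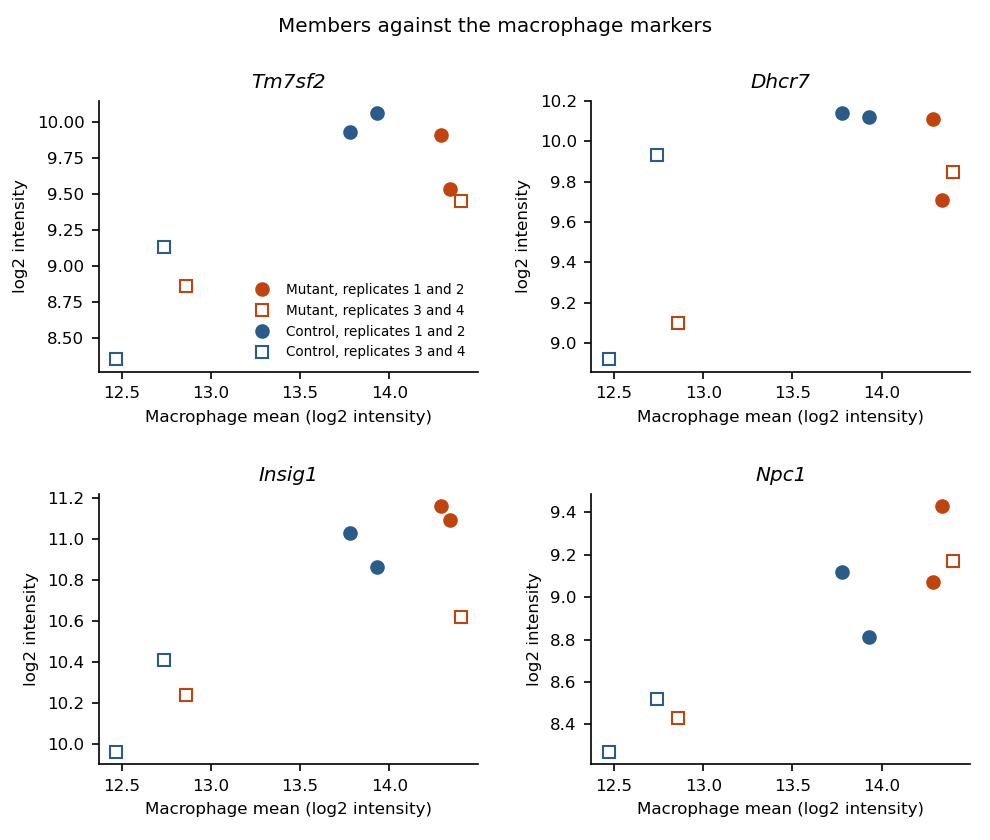
Log2 intensity of Tm7sf2, Dhcr7, Insig1 and Npc1 on each array against the mean of 3 macrophage markers, with mutants in orange and controls in blue, and open squares for replicates 3 and 4. The 3 arrays with a macrophage mean of 12.86 or below are all open squares, and mutant 3 is the open square among the macrophage-rich arrays.

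The macrophage-poor arrays, mutant 4 and controls 3 and 4, are all replicates 3 or 4, so the macrophage range and the bioB division largely coincide. With the bioB division as a factor, 0 of 26 slopes passed the threshold in limma, 5 had an unadjusted p under 0.05 (Tm7sf2, Dhcr7 and Npc1 positive, Sc5d and Stard4 negative). In the same fit 4.73% of all genes passed the threshold and 17.4% had an unadjusted p under 0.05. The slopes were then 0.54 for Tm7sf2 (adjusted p = 0.25), 0.56 for Dhcr7 (adjusted p = 0.273), 0.26 for Insig1 (adjusted p = 0.347) and 0.45 for Npc1 (adjusted p = 0.15, all limma). Of these 4 slopes, that of Dhcr7 moved least and that of Insig1 most. With the poly-A division as a factor, chosen after seeing the data, 3 of the 4 passed and Insig1 had adjusted p = 0.0611 in limma.

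**Figure D5:**
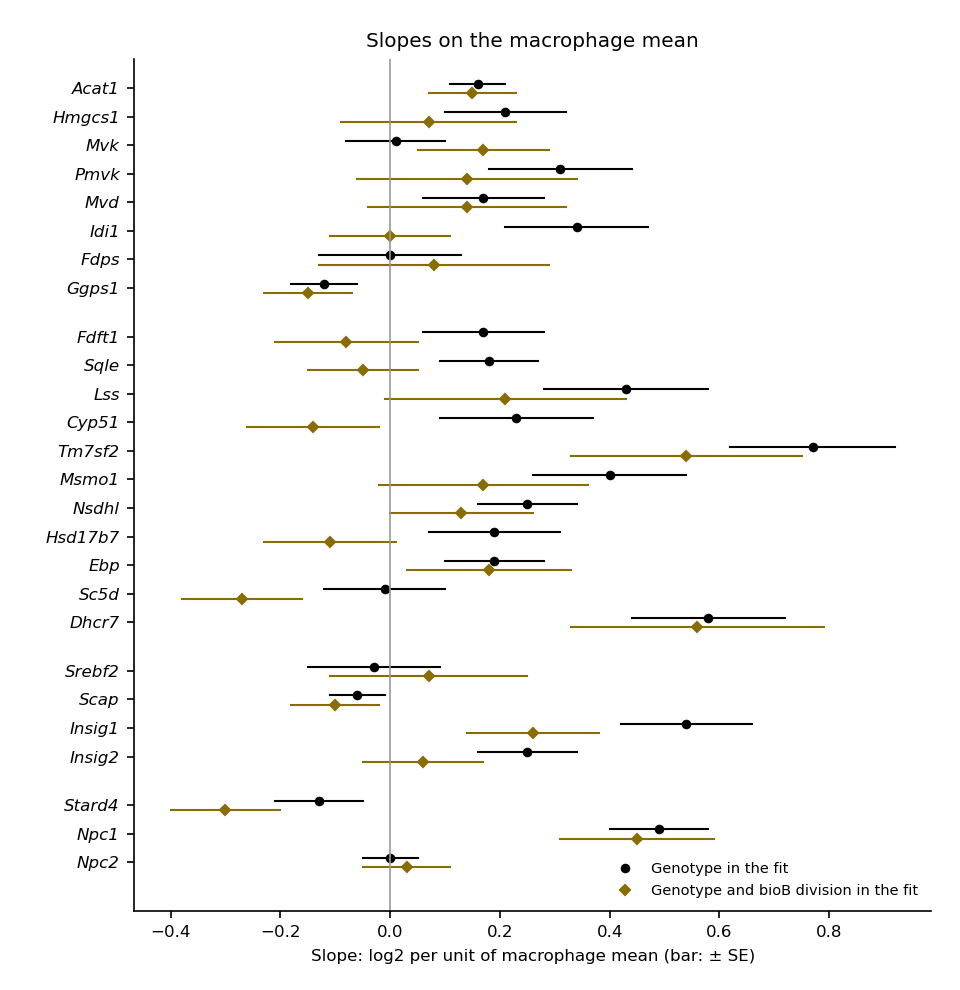
Slope of each member on the macrophage mean (log2 per unit, ± SE, n = 8 arrays), with genotype in the fit (black circles) and with genotype and the bioB division (brown diamonds). With the division no slope passes the adjusted threshold, and those of Npc1, Dhcr7 and Idi1 are 0.45, 0.56 and 0.00.

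Mutants 3 and 4 offer a comparison inside both divisions, since they share genotype, bioB and poly-A range and differ in macrophage mean (14.40 in mutant 3 and 12.86 in mutant 4). Mutant 3 exceeded mutant 4 by 0.75 for Dhcr7, 0.74 for Npc1, 0.58 for Tm7sf2 and 0.39 for Insig1. It was higher for 13 of the 19 enzymes and 15 of the 26 members, against 44.6% of all genes. Stard4, Sc5d, Ggps1, Cyp51 and Fdft1 ran furthest the other way, with mutant 3 minus mutant 4 at -0.44, -0.38, -0.30, -0.28 and -0.25. Hsd17b7 and Scap (both -0.21), Sqle and Srebf2 (both -0.10) and Npc2 (-0.01) did so by less. For Stard4 the other probe sets differed little, at 9.64 and 9.46 in mutant 3, against 9.55 and 9.51 in mutant 4. These are single arrays, with no replicate check.

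The number of slopes past the threshold also depended on single arrays. Without control 2 it was 1 (Npc1), without mutant 4 it was 1 (Tm7sf2), and without control 1 it was 2 (Tm7sf2 and Npc1), in fits where 6.85%, 5.91% and 8.34% of all genes passed. Without mutant 3 it was 7, where 17.2% of all genes passed. In these fits the members' count moved in the same direction as the count over all genes. The members' count stayed at 4 without mutant 1 and without control 3, where 9.45% and 10.8% of all genes passed. Whether macrophage RNA, the array division or another property of the cultures accounts for the slopes was not tested.

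Beyond the members, 39 of 42 other listed genes of the pathway were measured, and 0 passed the adjusted threshold between genotypes in limma. At an unadjusted p under 0.05, 3 were higher and 4 lower in mutants, against 15.5% of all genes in either direction, and the median difference was -0.05. The 6 with the smallest p were Tmem97, which binds Npc1 (-0.54, adjusted p = 0.19), Hsd3b7 of bile acid synthesis (0.96, adjusted p = 0.205), the lipoprotein receptor Vldlr (-0.73, adjusted p = 0.211), the farnesyltransferase subunit Fntb (-0.36, adjusted p = 0.222), the sterol transfer protein Gramd1a (0.53, adjusted p = 0.237) and Faf2 of sterol-regulated degradation (-0.26, adjusted p = 0.256, all limma). Tmem97 read 10.00, 10.32, 10.17 and 10.53 in mutants, against 10.68, 10.56, 11.12 and 10.83 in controls, so its genotypes did not overlap.

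By group, none of the 8 measured genes of SREBP cleavage and degradation was higher at an unadjusted p under 0.05 and 1 was lower. Among 9 genes of isoprenoid use 0 were higher and 1 lower, among 16 of uptake, hydrolysis and transfer 2 were higher and 2 lower, and among 6 of sterol reduction and oxidation 1 was higher and 0 lower. On the macrophage mean 6 of the 39 had slopes past the adjusted threshold in limma, near the 13.8% of all genes that did in either direction. All 6 were positive, where 7.38% of all genes were, and 0 were negative, where 6.45% of all genes were. Hsd3b7, Gramd1a and the lysosomal sterol-binding protein Stard3 (0.46, unadjusted p = 0.0494 in limma), the 3 genes higher in mutants at the unadjusted level, were all among these 6. These slopes had genotype alone in the fit. Values with the bioB division, under which no member's slope passed, are not given for the 39 genes.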

How the data were processed

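RNA labelled with biotin was hybridised to Affymetrix arrays, per the labels' protocols. The deposited values are log2 intensities that the authors made with RMA, per the submitters' processing notes, 1 value per probe set and array. Its version is not given in the sources. The values were used as deposited, with array medians of 6.90 to 6.96. Of 45101 probe sets, 34945 carried 1 gene symbol, 932 several and 9160 none, and 64 were array controls. Symbols were updated by Entrez identifier through RefSeq (34741 probe sets), and the brightest probe set stood for each of 18193 genes.

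R 4.3.3 and limma 3.58.1 were used (lmFit, then eBayes) to fit mutant minus control without covariates. Two-sided p-values were adjusted by Benjamini-Hochberg over all genes at a threshold of 0.05. Slopes on the macrophage mean were fitted likewise with genotype as a term. SE and 95% intervals are limma's moderated ones. The macrophage mean was compared by an exact permutation test. The procedure was tested on simulated data. Named genes were all members, Tgfbr2, the macrophage markers and the 6 other pathway genes with the smallest p. Stard3, of the other pathway genes, and Osr2, Pdgfra, Cdh1 and Xist, of the cell type and sex markers, were named for their values. The members and lists were chosen with earlier results of these data known. The labels do not tie same-numbered arrays together, and the fit had no replicate block. No 2 arrays were identical. Alternatives covered scaling, probe set choice, dim genes, variance models, array weights, control-probe divisions, macrophage covariates and each array left out. Promoter letters were searched in RefSeq windows of GRCm38.p6, and the array probes were given no coordinates.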

Additional observations from a re-analysis of the deposited data

Results flagged for a closer look

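Within a genotype, 7 values stood apart, each with a gap to its nearest neighbour that was large against the range of the 4 arrays (Dixon's ratio above the 95% critical value). Chance alone gives about 1 such value in 20 groups, and 2 groups were examined for each of the 26 members. Control 4 stood low for 4 enzymes, Hmgcs1 (12.59), Pmvk (9.27), Lss (9.16) and Dhcr7 (8.92). Mutant 4 stood high for Ggps1 (9.15), the isoprenoid branch enzyme, and low for the macrophage mean (12.86). Control 2 stood high for the kinase Mvk (9.67), whose controls lay within 0.15 of each other.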

How the results depend on the processing

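With 4 arrays per genotype, the 95% interval of the difference reached beyond a 1.5-fold change for 11 of the 26 members. All 26 were above the median of all probe sets on every array. No member passed the adjusted threshold under any alternative, except Ggps1 without mutant 4 (0 to 1 members with 1 array left out). The median difference over members ran from -0.12 without control 4 to 0.06.

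The count of members at an unadjusted p under 0.05 (1 as reported) was 0 with quantile normalisation, 2 with the mean of all probe sets, 0 without probe sets of shared sequence, 2 with array weights, 4 with the replicate block, 3 with the bioB division, 2 with the poly-A division, 2 when the macrophage mean was a covariate (14.4%, 14.6%, 15.1%, 27.9%, 21.0%, 22.1%, 21.8% and 17.3% of all genes, in this order), and 0 to 2 with 1 array left out (9.55% to 24.1% of all genes). It was 6 on replicates 1 and 2 alone, where 28.6% of all genes reached that level, and 0 on replicates 3 and 4, where 5.21% did. The number of all genes past the adjusted threshold (16) was 0 without probe sets of shared sequence, 1470 with array weights, 0 with the replicate block, 2 with the poly-A division, 2085 on replicates 1 and 2, 0 on replicates 3 and 4, 43 with the longer macrophage list as a covariate, 41 at a threshold of 0.1, and 0 (without mutant 1, mutant 2 or control 1) to 1316 (without mutant 4) with 1 array left out. The causes were not tested. The replicate block changed no member's call. Its unadjusted p was 0.017 for Npc1 and 0.0319 for Insig1 (adjusted p 0.166 and 0.199, limma). Deviations of same-numbered arrays correlated at 0.47, 0.42, -0.09 and 0.37, and 0 of 4 mutant and 2 of 4 control arrays were closest to their own number, so the numbers were not treated as pairs.

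Several differences, none of them called, changed sign. Quantile normalisation gave 0.00 for Ebp and Sc5d. Centring each array gave -0.02 for Hmgcs1, Fdft1 and Lss. The mean of all probe sets gave 0.09 for Sc5d, 0.02 for Scap and 0.13 for Stard4. Array weights gave -0.03 for Hmgcs1, -0.02 for Mvk, -0.09 for Fdft1, -0.02 for Lss and -0.18 for Tm7sf2. The poly-A division gave 0.03 for Sc5d. Replicates 1 and 2 gave -0.13 for Mvk, -0.08 for Fdft1, -0.28 for Tm7sf2, 0.05 for Sc5d and 0.05 for Stard4. Replicates 3 and 4 gave 0.00 for Idi1, -0.04 for Lss, 0.14 for Ebp, 0.05 for Dhcr7, 0.09 for Srebf2 and 0.07 for Insig2. The macrophage mean as a covariate gave -0.15 for Hmgcs1, -0.04 for Pmvk, -0.09 for Idi1, -0.11 for Fdft1, -0.31 for Lss, -0.50 for Tm7sf2, -0.19 for Insig1 and -0.02 for Npc1. Under that covariate Ggps1 kept its sign, at -0.15 (unadjusted p = 0.115 in limma). Acat1 kept its sign too, at -0.30, with the smallest p of the members there (unadjusted 0.00437, adjusted 0.166 in limma). The longer list gave -0.12 for Hmgcs1, 0.00 for Pmvk, -0.08 for Idi1, -0.08 for Fdft1, -0.27 for Lss, -0.41 for Tm7sf2 and -0.14 for Insig1.

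With 1 array left out, the differences that changed sign ran from -0.37 to 0.11 for Dhcr7, -0.17 to 0.05 for Ebp, -0.11 to 0.10 for Fdft1, -0.17 to 0.10 for Fdps, -0.14 to 0.08 for Hmgcs1, -0.19 to 0.04 for Insig2, -0.23 to 0.16 for Lss, -0.02 to 0.16 for Mvk, -0.01 to 0.29 for Pmvk, -0.13 to 0.08 for Sc5d, -0.15 to 0.00 for Stard4 and -0.27 to 0.30 for Tm7sf2. Others kept their sign but moved, from 0.02 to 0.23 for Mvd, 0.02 to 0.30 for Idi1 and 0.10 to 0.30 for Nsdhl.

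Members with a macrophage slope past the threshold (4) numbered 0 with the bioB division, 3 with the longer macrophage list (Dhcr7 at adjusted p = 0.0652 in limma) and 1 to 7 with 1 array left out. Without genotype in the fit they numbered 5, with Msmo1 (adjusted p = 0.0341) and Nsdhl (0.0455) added and Dhcr7 lost (slope 0.40, adjusted p = 0.117, all limma), and the slope of Idi1 with that division was 0.00. Of the 15 slopes with unadjusted p of 0.05 or above, 9 changed sign under some alternative.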
